A study of Mus musculus with 6 samples.

Results

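The genes described here are 39 members of the hypoxia response and of glycolysis, taken by symbol from the 23481 genes of a deposited table of read counts. They comprise 6 genes of the hypoxia-inducible factor (HIF) and its regulators, 12 HIF targets outside glycolysis, 3 glucose and lactate carriers and 18 glycolytic enzymes. They were measured by RNA sequencing in 4T1, a mouse mammary carcinoma cell line infected with hairpins and grown in DMEM with non-essential amino acids. The series calls the cells 4T1, the deposited table is named for 4T1-T, and the labels do not say whether that is a clone. Of the hairpins, shAsns-1 and shAsns-2 target Asns, which encodes asparagine synthetase, and shRenilla is the control, aimed at a luciferase. The labels give every hairpin libraries A and B, but shAsns-1 B held 0 reads at every gene, so 5 libraries were used. The labels do not say that libraries A and B were separate cultures, so p-values measure only the spread between these libraries.

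HIF is a pair of an alpha subunit and the constant partner Arnt. In oxygen, prolyl hydroxylases of the Egln family mark the alpha subunit, and Vhl, part of a ubiquitin ligase, has it destroyed. When oxygen is low the pair binds DNA at a short core motif, and raises genes of glucose uptake, glycolysis, pH control, mitophagy and vessel growth. Many tumour cells run glycolysis fast also in the presence of oxygen.

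Gene reads numbered 10244753 in the library labelled shAsns-1, 10472179 (A) and 13888327 (B) with shAsns-2, and 15955168 (A) and 14287190 (B) with shRenilla. A count of 3 reads, taken as the floor, equals 0.188 to 0.293 CPM (counts per 1000000 gene reads). Asns stood at 110 CPM in the library labelled shAsns-1, at 45.7 (A) and 44.2 (B) CPM with shAsns-2, and at 58.7 (A) and 56.9 (B) CPM with shRenilla. In edgeR's quasi-likelihood test its log2 fold change was 0.92 in the library labelled shAsns-1 (adjusted p = 6.27e-05), against that label, and -0.34 in shAsns-2 (adjusted p = 0.216). The library labelled shAsns-1 had reads at 17672 genes, and the others at 15052 to 15392. The summed level of 9 epithelial markers was 936 CPM in that library and 1130 to 1180 CPM in the others. Of the 9, 5 were lower in it than in shRenilla at an adjusted p under 0.05 in the same test. These were Krt14, Krt7, Epcam, Cdh1 and Krt19, with log2 fold changes from -2.21 to -0.48. Of all genes tested, 2.06% were called lower there. Markers of red blood cells and the fibroblast marker Lum were at 0 in every library, markers of endothelium summed to 0.36 to 1.43 CPM and those of immune cells to 4.76 to 7 CPM. Markers of fibroblasts, mostly Pdgfra, summed to 28.9 to 29.9 CPM, except for 39.4 CPM in the library labelled shAsns-1. In bulk RNA, fewer cells of a type and less RNA per cell cannot be told apart. The part of these differences in the results was not tested.

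The promoters of 4 members are shown because these genes outside glycolysis differed most clearly between libraries, as described later. Bnip3, Ankrd37, Car9 and Egln3 each hold at least 1 match to ACGTG, the HIF core motif, within 250 bases before the RefSeq start (GRCm38.p6), searched on both strands together with GCGTG. Sequences run 5′ to 3′ on the strand of the gene. Capitals mark matches, which read CACGT or CACGC where they lie on the opposite strand, and overlapping matches were merged.

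Bnip3 (chr7:138909520-138909756, minus strand): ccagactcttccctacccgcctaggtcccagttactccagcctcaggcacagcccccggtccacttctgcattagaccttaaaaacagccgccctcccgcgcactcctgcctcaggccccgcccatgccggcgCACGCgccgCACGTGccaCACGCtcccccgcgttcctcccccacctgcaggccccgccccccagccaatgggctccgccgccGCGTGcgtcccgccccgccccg
Ankrd37 (chr8:45999868-46000100, minus strand): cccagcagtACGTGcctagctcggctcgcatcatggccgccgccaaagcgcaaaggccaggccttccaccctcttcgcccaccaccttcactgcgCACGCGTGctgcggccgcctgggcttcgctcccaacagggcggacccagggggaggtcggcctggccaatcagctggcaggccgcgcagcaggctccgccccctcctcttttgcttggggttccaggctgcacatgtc
Car9 (chr4:43506996-43507025, plus strand): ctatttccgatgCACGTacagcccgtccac
Egln3 (chr12:54203875-54204124, minus strand): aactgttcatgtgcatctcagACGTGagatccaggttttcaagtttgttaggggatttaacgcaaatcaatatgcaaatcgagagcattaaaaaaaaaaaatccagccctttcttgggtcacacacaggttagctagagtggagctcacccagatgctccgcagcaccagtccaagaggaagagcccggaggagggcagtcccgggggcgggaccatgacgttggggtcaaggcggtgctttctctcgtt

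The ACGTG match began 108 bases before the start in Bnip3, 18 bases in Car9 and 229 bases in Egln3. Ankrd37 held 2, beginning 241 and 6 bases before the start, and the nearer one lies outside the printed stretch. Bases that GENCODE counts as exon were left off for Bnip3 and Ankrd37, and all of Egln3's window is printed. For Car9 only the last 30 bases are printed, and all 30 lie inside the first exon of GENCODE, which starts 60 bases before the RefSeq start. Of 35 members with a RefSeq promoter, 20 held ACGTG (57.1%), against 18.5% of 27025 genes. Among HIF targets outside glycolysis it was 7 of 10, and among glycolytic enzymes 8 of 18 (44.4%). Some genes have several promoters, and a gene was counted if any of them held a match. Per promoter the share was 45.3% of 53 for members, against 16.6% of 32851. It was 50% for HIF targets outside glycolysis and 36.7% for glycolytic enzymes. The median GC content of the members' promoters was 60.4%, against 52.4% over all promoters. A match is a description of letters and does not show that HIF binds there.

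In the control cells, several glycolytic enzymes and Hif1a were the most abundant members per kilobase of exon, while other enzymes ranked low. Levels of different genes are given as CPM per kilobase of exon, as the mean ± SD of the 2 shRenilla libraries. Order and ties hold for this length only, which for some genes is far above that of the longest coding transcript. Pkm has 5001 bases of exon against 2432, Gapdh 4133 against 1420, Hif1a 5896 against 4724 and Pgam1 1982 against 1775. Ldha, which turns pyruvate into lactate, stood highest at 788 ± 19.8. Next came Pgam1, the phosphoglycerate mutase, at 322 ± 27.6, and then Pkm, the pyruvate kinase, at 266 ± 3.54. Aldoa, an aldolase, followed at 174 ± 4.95 and Pgk1, the phosphoglycerate kinase, at 166 ± 10.6, neighbours that differed by less than the SD of Pgk1. Hif1a, the alpha subunit, at 66.7 ± 4.67, Gapdh, the glyceraldehyde phosphate dehydrogenase, at 66.4 ± 2.4, the glucose carrier Slc2a1 at 64.8 ± 1.91 and Tpi1, the triose phosphate isomerase, at 62.6 ± 7.57 could not be ordered beyond their spread. Bnip3l, a receptor for mitophagy, led the HIF targets outside glycolysis at 54 ± 4.17. Low members were Ankrd37, an ankyrin repeat protein, at 1.61 ± 0.0919, Eno2, the neuronal enolase, at 1.57 ± 0.113, and Aldoc, the brain aldolase, at 1.17 ± 0.0212. The glucose carrier Slc2a3 was lower again at 0.1 ± 0.00523.

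**Figure D1:**
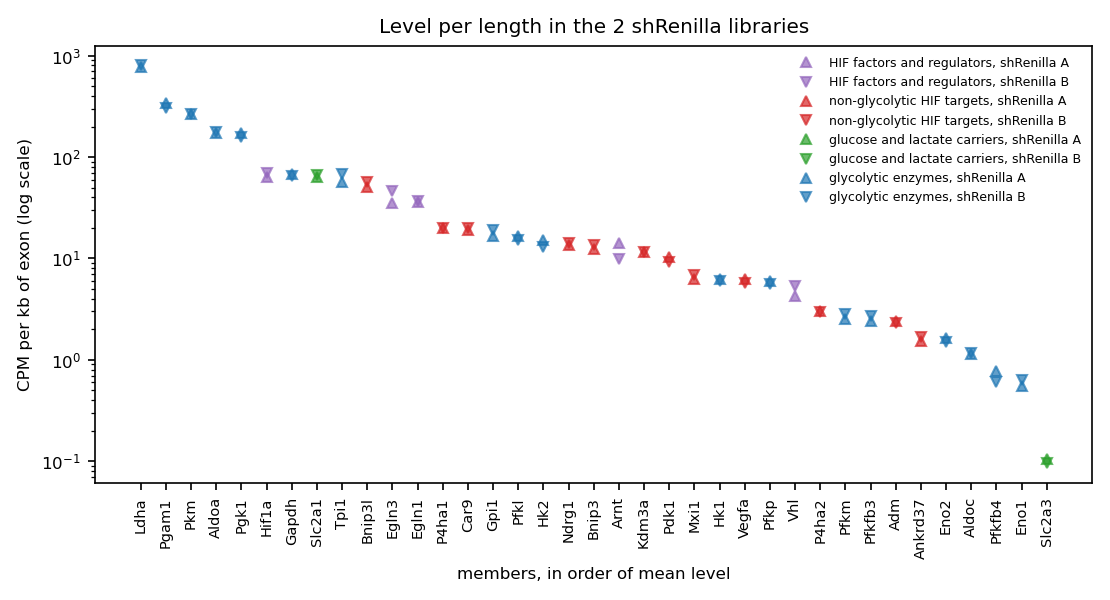
Level of each member per length (CPM per kilobase of exon, log axis) in shRenilla A (upward triangles) and shRenilla B (downward triangles), in order of the mean and coloured by role. Ldha stands highest at a mean of 788 and Slc2a3 lowest of those drawn at 0.1; Slc16a3 and Epas1 are left out because at least 1 shRenilla library had 0 reads.

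Several of the abundant enzymes share sequence with copies elsewhere in the genome, so their counts are uncertain. Of the 50-base windows of the longest coding transcript, 82.5% were shared with other genes for Gapdh and 68% for Pgk1. The share was 41.5% for Pgam1, 34.4% for Pkm, 16.6% for Ldha and 13.5% for Aldoa. The row of Eno1, the main enolase, is the extreme case: it held 2.44 to 3.43 CPM, while 72.2% of its windows were shared, mostly with the copy Eno1b. Eno1b is listed as Gm5506, named here after its values were seen, and held 293 to 381 reads for each read at Eno1. Gm5506 stood at 929 CPM in the library labelled shAsns-1, at 948 (A) and 893 (B) CPM with shAsns-2, and at 865 (A) and 1010 (B) CPM with shRenilla. Its groups overlapped, with a log2 fold change of 0.00 in shAsns-2 and -0.03 in the library labelled shAsns-1. The single level of Eno1 is therefore not interpreted.

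The first question was whether the HIF factors themselves differed between libraries. Hif1a stood at 429 CPM in the library labelled shAsns-1, at 372 (A) and 376 (B) CPM with shAsns-2, and at 374 (A) and 412 (B) CPM with shRenilla. The log2 fold change of Hif1a was 0.12 (95% interval -0.09 to 0.32) in the library labelled shAsns-1 and -0.04 (-0.21 to 0.13) in shAsns-2, with neither called. Epas1, the other alpha subunit, had 1 read in the library labelled shAsns-1 and 0 reads in the other 4, at or under the floor, and was not tested.

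Arnt, the partner subunit, stood at 101 CPM in the library labelled shAsns-1, at 112 (A) and 119 (B) CPM with shAsns-2, and at 113 (A) and 78.8 (B) CPM with shRenilla. The shRenilla libraries of Arnt differed more from each other than the shAsns-2 libraries did from shRenilla A. Its shAsns-2 effect on the log2 scale was 0.30 (SE 0.123, adjusted p = 0.453), 0.59 without shRenilla A (adjusted p = 0.0365) and 0.06 without shRenilla B, where it was not called. Egln1, the main oxygen-sensing hydroxylase, stood at 122 to 136 CPM and Vhl at 11.6 to 15.9 CPM over the 5 libraries, and neither was called in either comparison.

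Egln3, a hydroxylase that is itself a HIF target, was the 1 regulator called. It lies on chromosome 12 (ENSMUSG00000035105.5, 54178981 to 54203860, minus strand, GRCm38, as for all positions given here). Egln3 stood at 149 CPM (exact Poisson limits 142 and 157 at 95%, counting error only) in the library labelled shAsns-1, at 99.3 (A) and 97.6 (B) CPM with shAsns-2, and at 94 (A) and 123 (B) CPM with shRenilla. The library labelled shAsns-1 was above the other 4, by 1.21 times over the highest, while shAsns-2 lay inside the shRenilla range. Its log2 fold change there was 0.45 (SE 0.124, adjusted p = 0.0481) and it was 0.28 (adjusted p = 0.121) without shRenilla A. Dropping shAsns-2 A also ended the call (adjusted p = 0.0942), as did dropping shAsns-2 B (0.0917). Egln3 also missed the threshold with DESeq2 (adjusted p = 0.0962), limma-voom (0.0525) and library totals without TMM scaling (0.0514).

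Some of the 12 listed HIF targets outside glycolysis were called above shRenilla in the library labelled shAsns-1. Most of the 12, like most glycolytic enzymes, were not called. Over all 38 members tested there, 5 rose and 0 fell in edgeR's quasi-likelihood test (13.2%), where 4.37% of the 12457 genes tested were called in either direction and 2.31% rose. Of the 12 HIF targets outside glycolysis, 3 rose, Bnip3, Ankrd37 and Car9, and 0 fell. Of the 18 glycolytic enzymes, 1 rose, Eno2, and 0 fell (5.56%). The median log2 fold change was 0.26 over these 12 HIF targets, -0.02 over the glycolytic enzymes and -0.01 over all genes tested. Over 26 further HIF targets tested, described later, it was 0.02, and of these 0 rose and 3 fell. The higher median therefore holds for the 12 listed targets only. At an unadjusted p under 0.05, 8 of the 12 HIF targets were higher and 0 lower, against 10.0% of all genes higher and 9.54% lower.

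Bnip3 encodes a mitochondrial protein of mitophagy and cell death. It lies on chromosome 7 (ENSMUSG00000078566.8, 138890836 to 138909519, minus strand), and 21.9% of its windows are shared with other genes. Bnip3 stood at 54.8 CPM (exact Poisson limits 50.3 and 59.5 at 95%) in the library labelled shAsns-1, at 27.1 (A) and 36.4 (B) CPM with shAsns-2, and at 28.2 (A) and 30.9 (B) CPM with shRenilla. The library labelled shAsns-1 was 1.5 times the highest of the other 4, and shAsns-2 bracketed shRenilla. Its log2 fold change was 0.88 (SE 0.142, adjusted p = 0.00182) in that library and 0.15 (SE 0.122, adjusted p = 0.73) in shAsns-2. In the library labelled shAsns-1 its call held in 10 of 10 alternatives, with log2 fold changes of 0.78 to 1.01 and adjusted p-values from 1.03e-10 to 0.0454.

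Ankrd37 lies on chromosome 8 (ENSMUSG00000050914.16, 45996902 to 46005707, minus strand). It stood at 6.44 CPM (66 reads, exact Poisson limits 4.98 and 8.2 at 95%) in the library labelled shAsns-1, at 2.58 (A) and 2.02 (B) CPM with shAsns-2, and at 2.38 (A) and 2.59 (B) CPM with shRenilla. The library labelled shAsns-1 was 2.49 times the highest of the others, and those 4 overlapped. The log2 fold change of Ankrd37 was 1.36 (SE 0.289, adjusted p = 0.0126) in that library and -0.10 in shAsns-2. Without shRenilla A the value was 1.31 (adjusted p = 0.0668).

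Car9 encodes a carbonic anhydrase at the cell surface that takes part in pH control, and it is a widely used marker of HIF activity. It lies on chromosome 4 (ENSMUSG00000028463.14, 43506966 to 43513729, plus strand). Car9 stood at 62.4 CPM (exact Poisson limits 57.6 and 67.4 at 95%) in the library labelled shAsns-1, at 49.6 (A) and 49.2 (B) CPM with shAsns-2, and at 44.1 (A) and 46.1 (B) CPM with shRenilla. Both shAsns-2 libraries were above both shRenilla libraries, and the library labelled shAsns-1 was above all 4. On the log2 scale Car9 differed from shRenilla by 0.46 (SE 0.107, adjusted p = 0.0241) in that library and by 0.16 (adjusted p = 0.59) in shAsns-2. Dropping shAsns-2 A, shAsns-2 B or shRenilla A ended its call, with adjusted p-values of 0.0615, 0.0593 and 0.0607, and DESeq2 gave 0.0963.

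**Figure D2:**
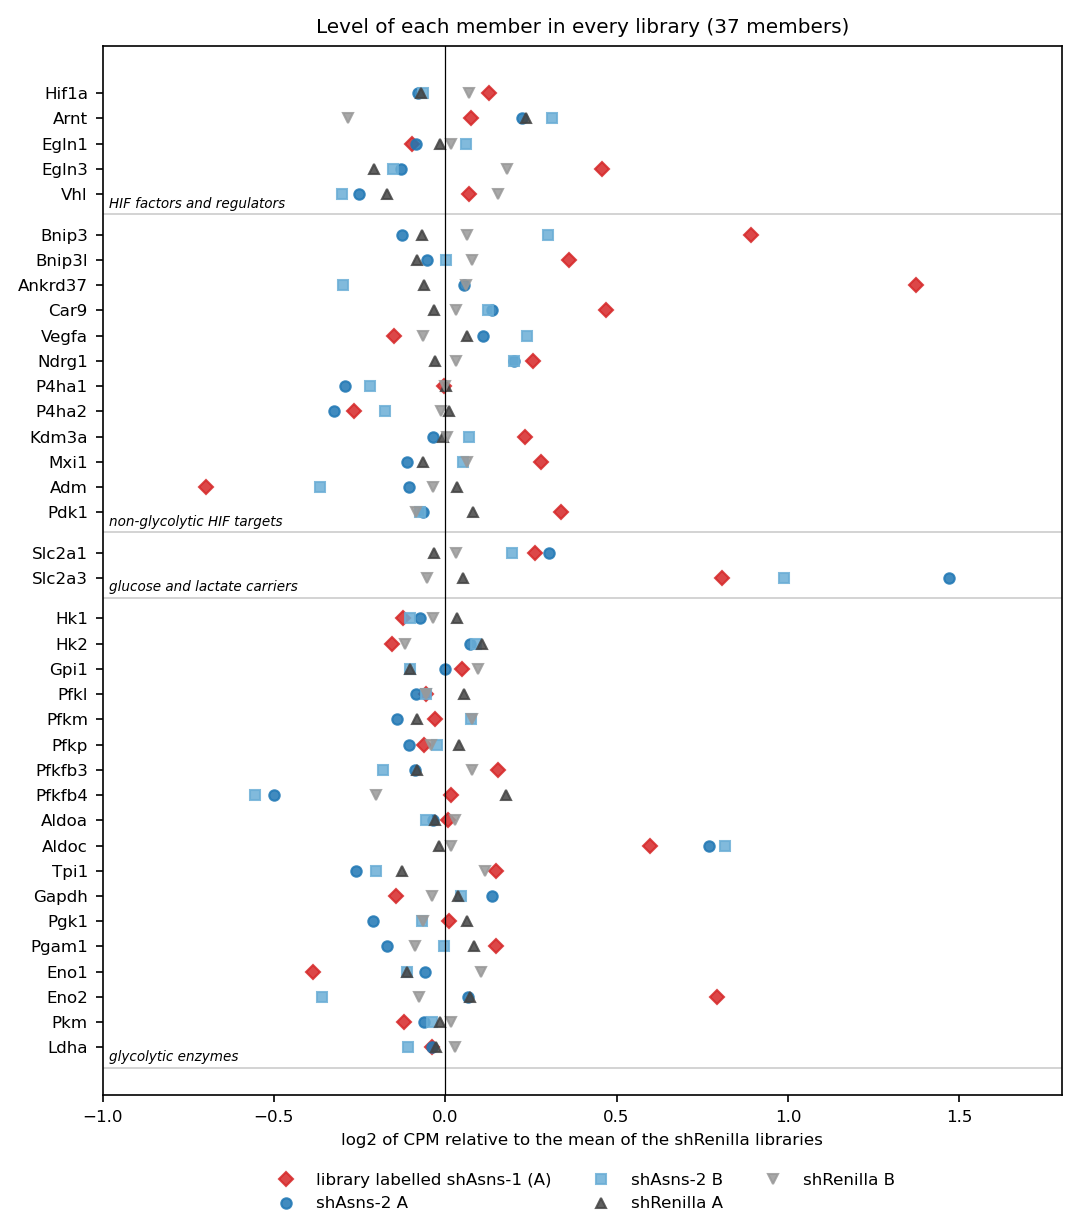
Level of 37 members in each library, as log2 of CPM relative to the mean of the shRenilla libraries, grouped by role; Slc16a3 is left out because 1 shRenilla library had 0 reads and Epas1 because it was not tested. The library labelled shAsns-1 (diamonds) stands right of the others for Bnip3, Ankrd37, Car9, Egln3 and Eno2, while Ldha, Pkm and Aldoa lie near 0 in every library.

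The other 9 HIF targets were not called in the library labelled shAsns-1. Bnip3l stood at 268 CPM there, at 201 (A) and 209 (B) CPM with shAsns-2, and at 197 (A) and 220 (B) CPM with shRenilla. Its log2 fold change of 0.35 missed the threshold (adjusted p = 0.0529) and passed without shRenilla B (0.42, adjusted p = 0.015) and when low genes were kept (0.33, adjusted p = 0.0357). Pdk1, the kinase that keeps pyruvate out of the mitochondrion, stood at 96 CPM, against 71.5 to 80.3 CPM in the other 4 libraries, with a log2 fold change of 0.33 (adjusted p = 0.0965). Without shRenilla A, Pdk1 had a log2 fold change of 0.42 (adjusted p = 0.0486). Mxi1, a repressor that competes with MYC for its partner, had a log2 fold change of 0.27, the histone demethylase Kdm3a 0.22 and the stress gene Ndrg1 0.24.

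Members of the same group also went the other way. Adm, the vessel-active peptide adrenomedullin, had 2.34 CPM in the library labelled shAsns-1 and 2.95 to 3.89 CPM in the others, with a log2 fold change of -0.71 (95% interval -1.42 to 0.00, adjusted p = 0.257). Vegfa, the vessel growth factor, stood at 23.2 CPM there and at 24.6 to 30.4 CPM in the others (log2 fold change -0.16). The collagen prolyl hydroxylase P4ha1 had a log2 fold change of -0.01 and P4ha2 one of -0.28. The library labelled shAsns-1 lay above all 4 others for 8 of 12 HIF targets and below them for 2, where 30.9% and 24.4% of all genes did so. Among glycolytic enzymes it lay above for 4 of 18 and below for 5.

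Summed over the 12 HIF targets, the level was 886 CPM in the library labelled shAsns-1, 706.4 (A) and 740.8 (B) CPM with shAsns-2, and 711.2 (A) and 736 (B) CPM with shRenilla. The sum of the 18 glycolytic enzymes, which leaves out Gm5506, was 6261, 6115, 6101, 6370 and 6405 CPM in the same order. The first sum was highest in the library labelled shAsns-1, and the second lay between shAsns-2 and shRenilla there. As the median over genes of the log2 difference from the mean of the 5 libraries, HIF targets stood at -0.09 to -0.007, except for 0.185 in the library labelled shAsns-1. Glycolytic enzymes ranged from -0.011 to 0.02 over all 5.

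**Figure D3:**
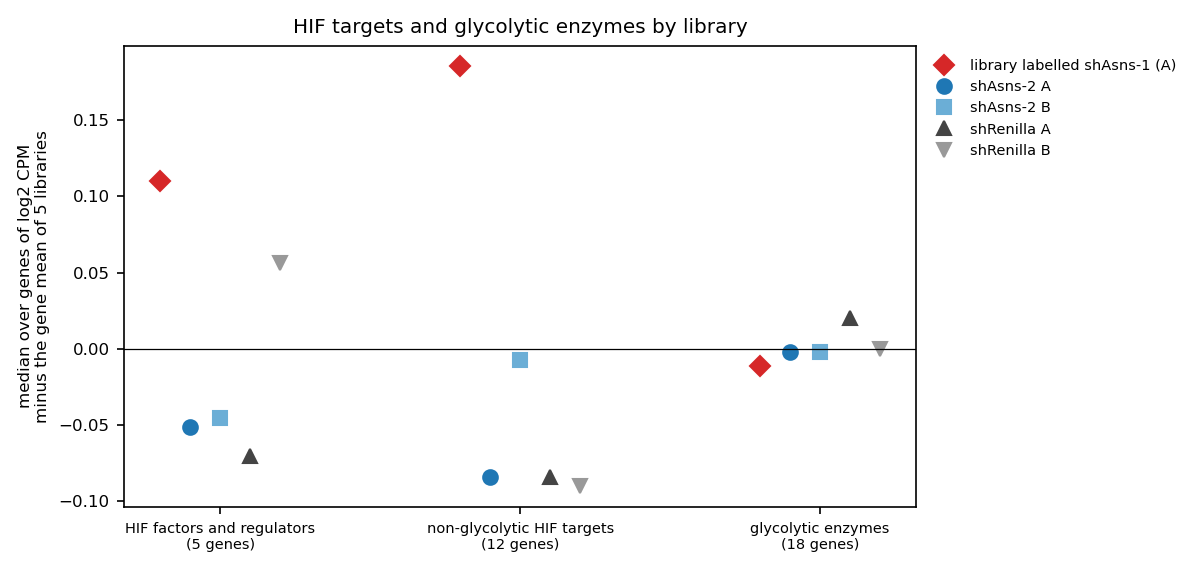
Median over genes of log2 CPM minus the gene's mean over the 5 libraries, for 3 of the groups of members; each symbol is 1 library. The 12 listed HIF targets outside glycolysis stand at 0.185 in the library labelled shAsns-1, whereas glycolytic enzymes stay between -0.011 and 0.02 in every library.

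The GC content of a transcript moved with this comparison: across 7476 genes Spearman's rho of GC and log2 fold change was -0.36, as a description over genes, which are not independent replicates. The median GC content was 48.4% for the HIF targets, 53.1% for the glycolytic enzymes and 49.5% for all genes tested. With the GC trend removed the medians were 0.25 and 0.02, and the calls of all 38 members tested stayed as they were.

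Of 18 glycolytic enzymes, 17 were not called in the library labelled shAsns-1. The share called was 5.56%, near the 4.37% of all genes tested. Ldha stood at 2540 CPM in that library, at 2540 (A) and 2420 (B) CPM with shAsns-2, and at 2560 (A) and 2660 (B) CPM with shRenilla. The log2 fold change of Ldha was -0.05 (95% interval -0.26 to 0.15) there and -0.04 (-0.21 to 0.12) in shAsns-2. Aldoa had log2 fold changes of 0.00 and -0.02, Pgk1 of 0.00 and -0.11, Pkm of -0.14 and -0.02 and Pgam1 of 0.13 and -0.06, in that library and in shAsns-2 respectively. In the same order Hk1, a hexokinase of most tissues, had -0.14 and -0.06, Gpi1, the glucose phosphate isomerase, 0.04 and -0.03, Gapdh -0.16 and 0.12, and Pfkfb3 0.14 and -0.11. Hk2 had -0.17 and 0.11, Pfkl -0.07 and -0.04, Pfkm -0.04 and 0.01, and Pfkp -0.07 and -0.04. Ldha took 39.7 to 41.6% of the reads of all 18 enzymes. Gm5506, at 865 to 1010 CPM, is not one of the 18, and the share would be lower with it counted.

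Eno2, the enolase of neurons and also a HIF target, was the exception in the library labelled shAsns-1. It lies on chromosome 6 (ENSMUSG00000004267.16, 124760053 to 124769673, minus strand). Eno2 stood at 12.8 CPM there (95% exact Poisson interval 10.7 to 15.2), at 7.73 (A) and 5.76 (B) CPM with shAsns-2, and at 7.77 (A) and 7 (B) CPM with shRenilla. That library was 1.65 times the highest of the others, and the other 4 overlapped. The log2 fold change of Eno2 was 0.78 (SE 0.206, adjusted p = 0.0418). The call was lost without shRenilla A (0.87, adjusted p = 0.0935) and without shRenilla B (0.70, adjusted p = 0.0908). With Gm5506 and the muscle enolase Eno3 counted among the enolases, Eno2 was 0.494% of enolase reads per kilobase of exon in that library and 0.231 to 0.319% in the others.

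**Figure D4:**
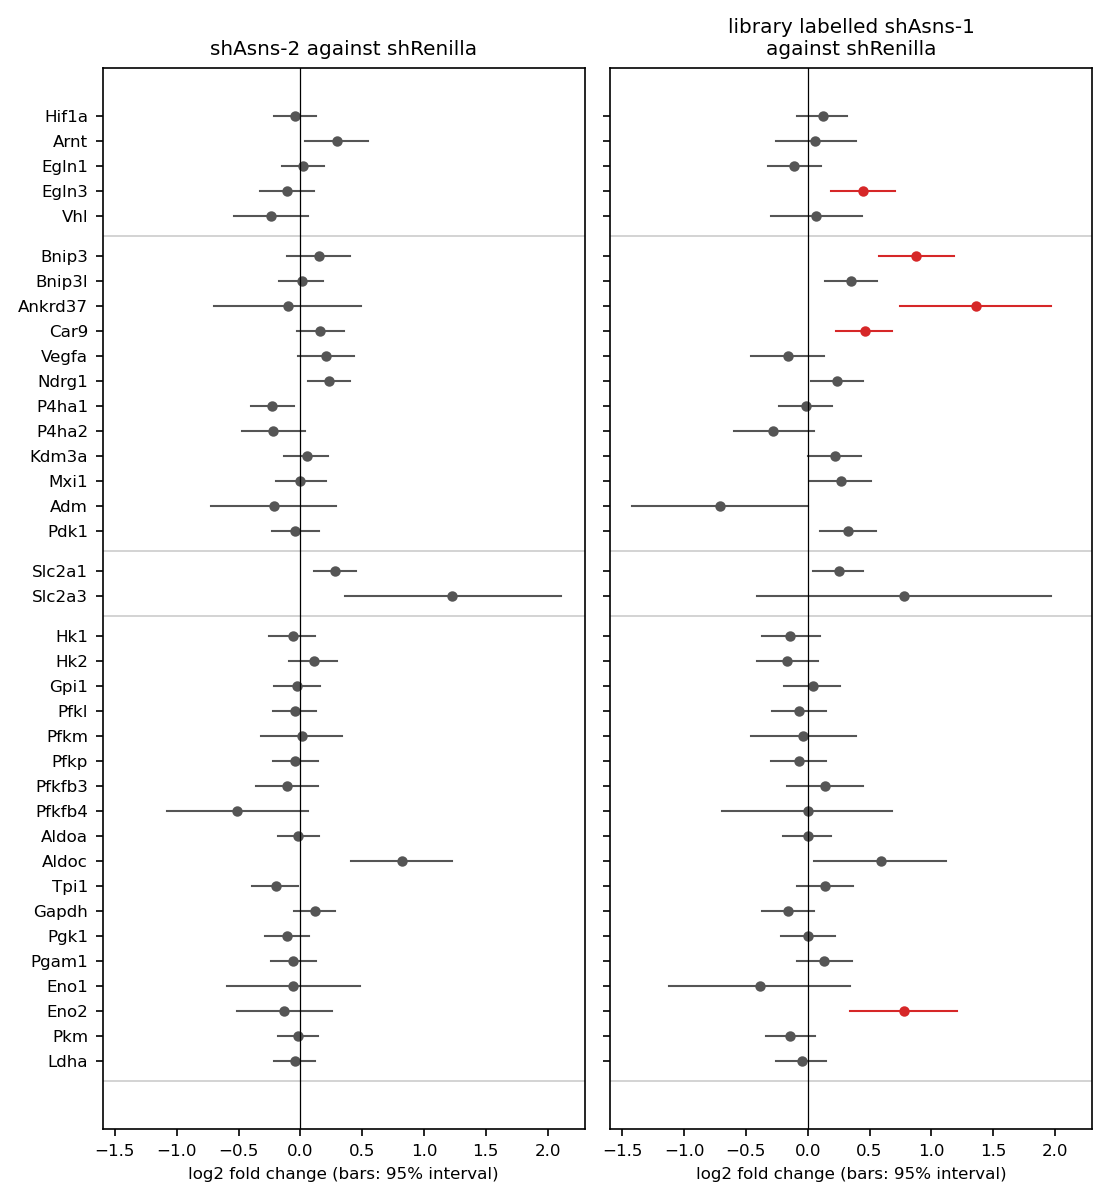
Log2 fold change with its 95% interval for 37 members in shAsns-2 (left) and in the library labelled shAsns-1 (right), each against shRenilla, from the same fit; red marks an adjusted p under 0.05 in edgeR's quasi-likelihood test. Red points are Egln3, Bnip3, Ankrd37, Car9 and Eno2 on the right and 0 members on the left.

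In shAsns-2, 0 of 38 members tested were called in edgeR's quasi-likelihood test against shRenilla, where 0.0642% of all genes were. DESeq2 and limma-voom also called 0. At an unadjusted p under 0.05, 5 members were higher and 2 lower, where 5.59% of all genes were higher and 4.05% lower. Both shAsns-2 libraries lay above both shRenilla libraries in CPM for 7 of the 38 members (18.4%), where 16.6% of all genes did so. They lay below for 13 (34.2%), where 25.8% of all genes did so. Of the 18 glycolytic enzymes, 9 lay below and 2 above, and of the 12 HIF targets 3 lay below and 3 above. The median log2 fold change was 0.01 over the HIF targets and -0.04 over the glycolytic enzymes. This comparison and the one of the library labelled shAsns-1 share the shRenilla libraries, so their values stand side by side and were not correlated.

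Aldoc had the smallest p of the members in shAsns-2. It lies on chromosome 11 (ENSMUSG00000017390.15, 78322968 to 78327781, plus strand). Aldoc stood at 6.49 (A) and 6.7 (B) CPM with shAsns-2, at 3.76 (A) and 3.85 (B) CPM with shRenilla, and at 5.76 CPM in the library labelled shAsns-1. All 3 libraries labelled with an Asns hairpin were above both shRenilla libraries, although Asns itself was higher, not lower, in the library labelled shAsns-1. For 16.6% of all genes both shAsns-2 libraries were above both shRenilla libraries. The share of genes with all 3 above was not counted. The log2 fold change of Aldoc was 0.82 (SE 0.194, unadjusted p = 0.000573, adjusted p = 0.159) in shAsns-2 and 0.59 (adjusted p = 0.208) in the library labelled shAsns-1. Keeping all genes with reads, it was called (0.82, adjusted p = 0.0116).

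Slc2a1, the main glucose carrier of most cells and a HIF target, lies on chromosome 4 (ENSMUSG00000028645.11, 119108711 to 119137983, plus strand). Slc2a1 stood at 280 (A) and 260 (B) CPM with shAsns-2, at 222 (A) and 232 (B) CPM with shRenilla, and at 272 CPM in the library labelled shAsns-1. These shAsns-2 and shRenilla libraries did not overlap, and the log2 fold change was 0.28 in shAsns-2 (SE 0.0797, adjusted p = 0.257) and 0.25 in the library labelled shAsns-1 (adjusted p = 0.162). Slc2a3, a carrier with high glucose affinity, stood at 2.01 (A) and 1.44 (B) CPM with shAsns-2, at 0.752 (A) and 0.7 (B) CPM with shRenilla, and at 1.27 CPM in the library labelled shAsns-1. It rests on few reads, and its log2 fold change of 1.23 in shAsns-2 had a 95% interval of 0.36 to 2.11 (adjusted p = 0.343). Slc16a3, a lactate carrier, had 3 reads in the library labelled shAsns-1, 3 (A) and 6 (B) with shAsns-2, and 15 (A) and 0 (B) with shRenilla, so no fold is given.

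Other members at an unadjusted p under 0.05 in shAsns-2 were Ndrg1 (log2 fold change 0.23, adjusted p = 0.371), P4ha1 (-0.23, adjusted p = 0.412) and Tpi1 (-0.20, adjusted p = 0.475). P4ha1 stood at 67 (A) and 70.5 (B) CPM with shAsns-2, at 82.1 (A) and 82 (B) CPM with shRenilla, and at 81.9 CPM in the library labelled shAsns-1. Here the library labelled shAsns-1 lay with shRenilla, and both shAsns-2 libraries were below. Pfkfb4, which makes or removes the activator of phosphofructokinase, stood at 2.39 (A) and 2.3 (B) CPM with shAsns-2, at 3.82 (A) and 2.94 (B) CPM with shRenilla, and at 3.42 CPM in the library labelled shAsns-1 (log2 fold change -0.51 in shAsns-2, adjusted p = 0.57).

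Set against each other, shAsns-2 and the library labelled shAsns-1 differed at 4 members, all lower in shAsns-2, where 0.811% of all genes were. These were Ankrd37 (log2 fold change -1.46, adjusted p = 0.0165), Bnip3 (-0.73, adjusted p = 0.0124), Egln3 (-0.56, adjusted p = 0.0259) and Eno2 (-0.90, adjusted p = 0.0373). Car9 had -0.30 (adjusted p = 0.173), so the difference was not called for that gene. With 1 library on one side, the hairpin and the library cannot be told apart. Without shAsns-2 A the call was lost for Bnip3 (-0.55, adjusted p = 0.163) and Egln3 (-0.58, adjusted p = 0.169). Without shAsns-2 B it was lost for Ankrd37 (-1.27, adjusted p = 0.117), Egln3 (-0.54, adjusted p = 0.149) and Eno2 (-0.68, adjusted p = 0.237), and without shRenilla A for Eno2 (-0.90, adjusted p = 0.0606). Calls were gained for Bnip3l without shRenilla A (-0.34, adjusted p = 0.0415) or B (-0.34, adjusted p = 0.0222), and without shRenilla B for Pdk1 (-0.37, adjusted p = 0.0293) and Tpi1 (-0.34, adjusted p = 0.0279).

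The isoform choice at most steps varied little between libraries, given as shares of reads per kilobase of exon among the members of a step. Hk2, the hexokinase that HIF raises, took 69.2% of the hexokinase reads in the library labelled shAsns-1, 71.8% (A) and 72.5% (B) with shAsns-2, and 70.8% (A) and 68.5% (B) with shRenilla. Among the phosphofructokinases, Pfkl, the liver type, took 64.2 to 66.1%, Pfkp, the platelet type, 23.6 to 24%, and Pfkm, the muscle type, 10.1 to 11.9%. Pfkfb3 took 80.1% of the Pfkfb3 and Pfkfb4 reads in the library labelled shAsns-1, 82.9% (A) and 82.6% (B) with shAsns-2, and 75.3% (A) and 81.6% (B) with shRenilla. Of these 4 steps the aldolases differed most in relative terms. Aldoc took 1.15% (A) and 1.2% (B) with shAsns-2, 0.668% (A) and 0.657% (B) with shRenilla, and 0.994% in the library labelled shAsns-1. Copies of Aldoa with rows of their own are not counted in these shares, and the Aldoc share would be lower with them. Slc2a3, at few reads, took 0.345% (A) and 0.267% (B) of the Slc2a1 and Slc2a3 reads with shAsns-2, 0.163% (A) and 0.146% (B) with shRenilla, and 0.225% in the library labelled shAsns-1. Shares depend on the length used, and the longest coding transcript was an alternative chosen after seeing the data. For Hk2 in shRenilla the mean was 69.6% per kilobase of exon, 61.6% of reads and 55.5% per kilobase of that transcript. In the same order Pfkp had 23.8%, 40.3% and 37.3%, Pfkm 11%, 4.65% and 6.19%, and Pfkl 65.2%, 55% and 56.5%.

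**Figure D5:**
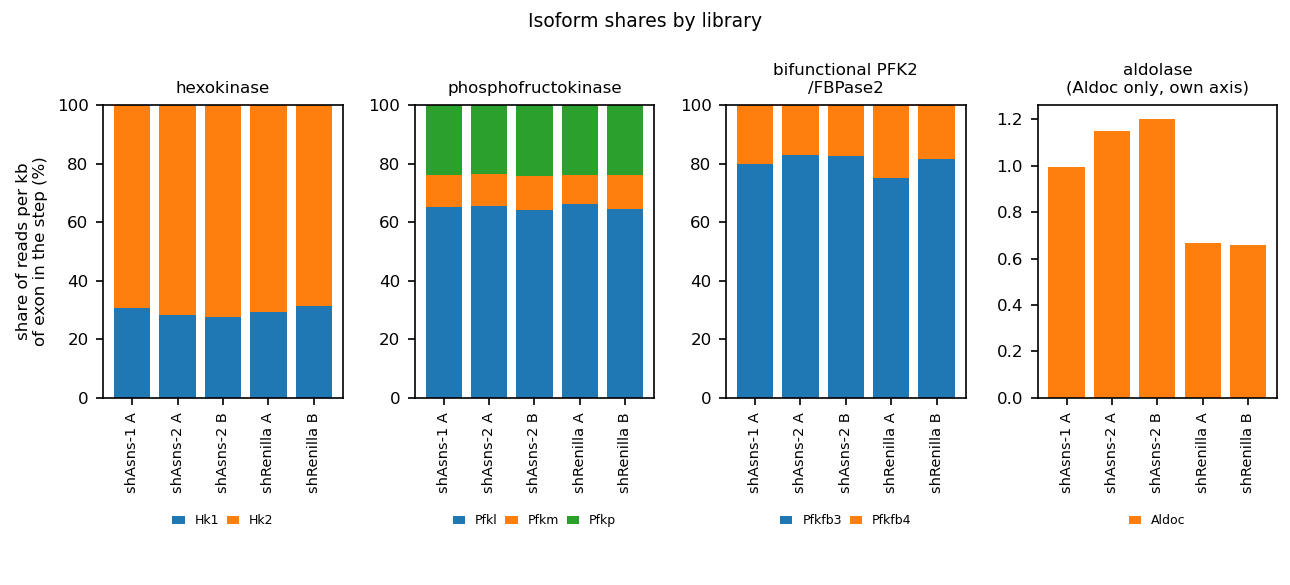
Share of each isoform in the reads per kilobase of exon of its step, in percent, for every library; the last panel shows Aldoc alone on an axis of its own that starts at 0, and shAsns-1 A is the library labelled shAsns-1. Hk2 takes 68.5 to 72.5% in all libraries, and Aldoc takes 0.657 to 0.668% in shRenilla and 1.15 to 1.2% in shAsns-2.

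Other genes of these pathways did not share one direction in the library labelled shAsns-1. Of 10 tested genes of the remaining HIF machinery, Tceb1, which encodes elongin C of the Vhl complex, rose (log2 fold change 0.68, adjusted p = 0.000764), and Crebbp, a coactivator, fell (-0.47, adjusted p = 0.0328). Together they are 20% of the 10, where 2.31% of all genes rose and 2.06% fell. Tceb1 stood at 111 CPM there and at 66.4 to 71.2 CPM in the other 4 libraries. Of 26 further HIF targets tested, 0 rose and 3 fell (11.5%), where 2.06% of all genes fell, with a median of 0.02, also with Edn1 at its bound. At an unadjusted p under 0.05 in edgeR's quasi-likelihood test, 5 of the 26 were higher and 5 lower. Over all genes the shares were 10.0% and 9.54%. Hmox1, the haem oxygenase, fell from 60.6 (A) and 61.4 (B) CPM with shRenilla to 39.7 CPM (-0.63, adjusted p = 0.00547). Edn1, the peptide endothelin, had 0 reads in the library labelled shAsns-1 and 0.877 (A) and 1.12 (B) CPM with shRenilla (adjusted p = 0.0341), at least 3.41-fold lower at a floor of 3 reads in that library.

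Of 24 further genes of glycolysis and pyruvate use tested, 1 fell there, Pdp2, a pyruvate dehydrogenase phosphatase (log2 fold change -0.52, adjusted p = 0.0336), and 0 rose. Pdp2 is 4.17% of the 24, where 2.06% of all genes fell and 2.31% rose. Of 7 pentose phosphate genes and 2 gluconeogenesis genes tested, 0 were called, where 4.37% of all genes were. In shAsns-2 0 of the 69 genes tested in these lists were called against shRenilla by edgeR, where 0.0642% of all genes were. At an unadjusted p under 0.05, 6 of the 69 were higher and 4 lower, where 5.59% and 4.05% of all genes were.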

How the data were processed

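Integer read counts per gene, made by the authors, were taken from the deposited table. Per the submitters' processing notes reads were handled with Bowtie2 and HTSeq on mm10; per the labels RNA was extracted with Trizol and the kit was Nugen Ovation RNAseq V2. No source used here gives versions, annotation or strand setting. The tally for reads with several alignments was 0, so levels of genes with near-identical copies are uncertain. The 5 tallies below the genes (55.8 to 60.0% of all reads) stayed out of library sizes and tests.

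The design assumed 6 libraries. shAsns-1 B was empty and was dropped, so 5 were fitted, leaving 2 residual degrees of freedom. The spread of the remaining shAsns-1 library was taken to equal that of the other groups. edgeR 4.0.16 in R 4.3.3 was used with filterByExpr (12457 genes, 38 of 39 members), TMM scaling and 1 quasi-likelihood fit over all groups (common dispersion 0.00388, median prior degrees of freedom 14.7). Calls were made at a Benjamini-Hochberg adjusted p under 0.05 over all genes tested. The members' log2 fold changes had a median SE of 0.0889 in shAsns-2 and 0.11 in the library labelled shAsns-1. The procedure was tested on simulated data that gave every library the same spread. That run could therefore not check the assumption made for the single shAsns-1 library. Exon lengths, GC content and shared 50-base windows came from GENCODE vM21 (GRCm38), where 39 members matched, and promoters from RefSeq (GRCm38.p6). Intervals on CPM cover counting error only.

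Libraries of a group were not duplicates, with a chi-square per degree of freedom of 3.17 for shAsns-2 and 9.2 for shRenilla. Against shAsns-2 A and B, shRenilla A gave 6.88 and 5.29, and shRenilla B gave 10.2 and 8.69. The value between the shRenilla libraries thus lies inside the range of those between them and shAsns-2. Alternatives were DESeq2 1.42.0, limma-voom (limma 3.58.1), no filter, library totals without TMM, the replicate block, removal of the GC trend and leaving out each library. The text names any member, and genes of other lists where called, except 1 that is not reported here. Members, lists and tests were chosen with earlier results of these data known.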

Additional observations from a re-analysis of the deposited data

Results flagged for a closer look

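Values here are log2 fold changes of shAsns-2 relative to the library labelled shAsns-1, for members where the test between these libraries passed. Ankrd37 had -1.46, Bnip3 -0.73, Eno2 -0.90 and Egln3 -0.56, and each was lower in shAsns-2. Asns, the targeted gene, had -1.26 (adjusted p = 5.96e-06 in edgeR's quasi-likelihood test), with the higher level in the library labelled shAsns-1. That side of the comparison is 1 library.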

How the results depend on the processing

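No called value turned its sign in the alternatives run. For members, 0 calls were lost and 4 gained among 416 values in shAsns-2, 14 lost and 4 gained among 370 in the library labelled shAsns-1, and 6 lost and 7 gained among 371 between shAsns-2 and the library labelled shAsns-1. Uncalled members changed sign in 30, 20 and 18 of these. Bnip3 kept its call in the library labelled shAsns-1 in 10 of 10. DESeq2 gave no adjusted p to 9 members there and to 8 between shAsns-2 and that library, Ankrd37 and Eno2 among them. In shAsns-2 the genes called went from 8 (8 higher, 0 lower) to 114 with no filter (87 higher, 27 lower) and 178 with the replicate block (134 higher, 44 lower), and 0 to 47 when leaving out 1 library. The members called went from 0 to 1 with no filter (Aldoc), 2 with the block (Arnt and Aldoc) and 0 to 1 leaving out 1 library. The glycolytic median was -0.07 without TMM, -0.05 with the GC trend removed and -0.04 to -0.03 leaving out 1 library, and that of HIF targets -0.02 to 0.05. In the library labelled shAsns-1 the genes called went from 544 to 253 with DESeq2, 919 with no filter, 924 with the block and 290 to 825 leaving out 1 library. The members called went from 5 to 1 with DESeq2 (Bnip3) and 2 to 5 leaving out 1 library. The glycolytic median was -0.04 with no filter, -0.01 without TMM, -0.03 with the block, 0.02 with the GC trend removed and -0.05 to -0.02 leaving out 1 library. Between shAsns-2 and the library labelled shAsns-1 the genes called went from 267 to 156 with DESeq2, 608 with no filter, 875 with the block, 150 with the GC trend removed and 58 to 642 leaving out 1 library. Without TMM they split into 130 higher and 144 lower, against 166 and 101. The members called went from 4 to 2 with DESeq2, 7 with the block and 1 to 7 leaving out 1 library. The HIF target median was -0.28 without TMM, -0.19 with the GC trend removed and -0.27 to -0.19 leaving out 1 library. The glycolytic median was 0.03 with no filter, -0.02 without TMM, 0.00 with the block, -0.04 with the GC trend removed and 0.00 to 0.02 leaving out 1 library. The replicate letters do not pair the libraries by the labels, and deviations of shAsns-2 A and shRenilla A from their group means had a correlation of 0.0306 over 7496 genes. With the block, in shAsns-2 Asns had -0.33 (adjusted p = 0.0388), Arnt 0.32 (adjusted p = 0.0263) and Aldoc 0.82 (0.0202). In the library labelled shAsns-1 Bnip3l was gained (0.40, 0.00851) and Eno2 lost (0.64, 0.0516), and between shAsns-2 and that library Arnt, Bnip3l and Tpi1 were gained. The causes were not tested. Leaving out a library lowers the residual degrees of freedom. Depth limits Slc2a3, Slc16a3 and Epas1, which had at most 21 reads in any library.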
